A study of Mus musculus with 8 samples.

Results

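Solute carriers are the membrane proteins encoded by genes whose symbols begin with Slc and a number. Of 355 such symbols listed among 23234 genes, 214 reached 1 FPKM in at least 2 of the 8 libraries and make up the set described here. FPKM counts sequenced fragments per length of the gene and per total mapped in that library. The deposited files name no unit, and the values are taken as FPKM because the submitters' processing notes name Cufflinks. The members were chosen from the measured FPKM itself, so their being expressed is a description and not a result. Of the 141 symbols that failed, 2 were at 0 in every library. Just outside the threshold, by the second-highest library, lay Slc15a1 at 0.958 FPKM and Slc25a47 at 0.954 FPKM, and just inside lay Slc7a9 at 1.01 FPKM and Slc43a2 at 1.02 FPKM. The set includes 5 genes that are named after a carrier and do not encode one, such as Slc9a3r1 and Slc7a6os.

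The libraries were made from pools of whole mouse embryos, 2 libraries for each of 4 groups. Wild-type oocytes came from superovulated f/f females, which carry floxed copies of Tet3, the gene of a dioxygenase that oxidizes methylated cytosine. Tet3-null oocytes came from f/- females with Zp3-Cre, a transgene driven by a promoter active in growing oocytes, so the deletion is one of the oocyte. For fertilization in vitro, sperm of adult CAST/EiJ males was used throughout, so every embryo also received a paternal Tet3 allele, and culture was in KSOM medium. The 2-cell pools held 10 embryos each, collected at 30 h after fertilization, and the blastocyst pools 7 each, collected at 96 h. The labels name no separate females or collections behind the 2 libraries of a group, so each p-value measures a spread that may be technical.

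Carriers move solutes across membranes down or against a gradient, often coupled to sodium, protons or a second solute. They work at the plasma membrane, where the early embryo takes up pyruvate, lactate, amino acids and later glucose, and in the membranes of mitochondria, the Golgi apparatus and vesicles. Cleavage-stage mouse embryos are known to rely on pyruvate and on glycine as an osmolyte, and blastocysts are known for a rise in glucose uptake and for pumping fluid into their cavity.

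Tet3 was at 10.8 and 7.54 FPKM in wild-type and 3.28 and 4.41 FPKM in Tet3-null 2-cell libraries, and below 1 FPKM in all blastocyst libraries. Read totals are unknown, and the summed FPKM ranged from 600495 to 956335. A list of 2-cell markers summed to between 3951 and 5553 FPKM in the 2-cell libraries and to between 2.69 and 5.36 FPKM in blastocysts. Blastocyst markers summed to at least 3332 FPKM in blastocysts and to at most 280.6 FPKM at the 2-cell stage. Within this list Fgf4 was higher at the 2-cell stage (15.1 to 58.9 against 2.09 to 4.11 FPKM), as was Gata4 (4.54 to 16.4 against 1.68 to 4.23 FPKM). Nanog overlapped between stages, at 134 to 167 against 114 to 145 FPKM. Every other marker of the list was higher in each blastocyst library than in any 2-cell library. Of 10 cumulus and granulosa markers, 7 were below 1 FPKM in every library, and the list summed to between 48.5 and 64.6 FPKM at the 2-cell stage and to between 17.2 and 25.2 FPKM in blastocysts. Of 7 sperm markers, 2 were below 1 FPKM in every library, and their sum was highest, at 23.4 FPKM, in Tet3-null 2-cell replicate 2. That library also had 7101 genes at 0, against 5370 to 6080 in the others, and a sum of 4 Y-linked genes of 0.158 FPKM against at least 24.9 FPKM elsewhere. In pools of whole embryos, fewer cells of a type and less RNA per cell cannot be told apart.

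The adenine nucleotide carriers exchange ADP for ATP across the inner mitochondrial membrane, and their promoters are shown first. Slc25a5 had the highest level of the set in every library, and Slc25a4 came next in all blastocyst libraries. Slc25a31, at lower levels, took the opposite course between stages. Slc44a1, a choline transporter, and Slc27a2, an acyl-CoA synthetase for very long-chain fatty acids, are shown because they were called between genotypes at the 2-cell stage. Each sequence is the 200 bases before the annotated start from the RefSeq promoter table for GRCm38.p6, 5′ to 3′ on the gene's strand, with CpG, the dinucleotide that Tet enzymes act on, in capitals.
Slc25a4: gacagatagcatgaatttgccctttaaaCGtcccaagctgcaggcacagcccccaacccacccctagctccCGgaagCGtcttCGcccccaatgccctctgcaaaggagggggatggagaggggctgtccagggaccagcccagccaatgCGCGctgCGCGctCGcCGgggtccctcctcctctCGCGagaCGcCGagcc
Slc25a5: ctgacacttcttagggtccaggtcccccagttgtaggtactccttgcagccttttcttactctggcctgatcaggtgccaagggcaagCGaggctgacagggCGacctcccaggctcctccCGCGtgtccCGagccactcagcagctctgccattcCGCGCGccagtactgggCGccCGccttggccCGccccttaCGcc
Slc25a31: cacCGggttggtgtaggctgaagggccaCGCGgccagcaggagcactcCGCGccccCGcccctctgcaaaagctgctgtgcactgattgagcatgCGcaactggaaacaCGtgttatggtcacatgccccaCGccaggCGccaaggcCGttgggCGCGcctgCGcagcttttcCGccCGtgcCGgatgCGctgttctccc
Slc44a1: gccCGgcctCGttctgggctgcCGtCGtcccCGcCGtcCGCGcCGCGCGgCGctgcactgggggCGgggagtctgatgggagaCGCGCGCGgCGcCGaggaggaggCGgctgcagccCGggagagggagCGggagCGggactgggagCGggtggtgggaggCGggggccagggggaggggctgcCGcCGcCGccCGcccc
Slc27a2: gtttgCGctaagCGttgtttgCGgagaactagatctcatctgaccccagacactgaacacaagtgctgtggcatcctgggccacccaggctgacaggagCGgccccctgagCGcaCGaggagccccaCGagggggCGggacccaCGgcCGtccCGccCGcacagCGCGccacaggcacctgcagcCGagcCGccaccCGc
The windows lie at chr8:46211063-46211262 on the minus strand for Slc25a4, at chrX:36795397-36795596 on the plus strand for Slc25a5 and at chr3:40708671-40708870 on the plus strand for Slc25a31. Those of Slc44a1, the first of 2 entries, and Slc27a2 lie at chr4:53440213-53440412 and chr2:126552824-126553023, both on the plus strand. The number of CpG was 14 for Slc25a4, 12 for Slc25a5, 18 for Slc25a31, 29 for Slc44a1 and 17 for Slc27a2, beside a median of 5 over all 32851 entries of the table. As many CpG as in Slc44a1 were found in 3.20% of entries, and as many as in Slc25a5 in 29.4%. The same window, not printed, held 1 CpG for Slc5a11 and 8 for Slc19a3, further members that differed strongly between stages. Methylation was not measured in these libraries. An entry was found for 165 of the 214 members (77.1%), so a comparison of CpG over the whole set is void.

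Of the 214 members, 131 reached 1 FPKM in at least 2 libraries of both stages, 30 did so at the 2-cell stage alone, 50 in blastocysts alone and 3 in one library of each stage. Blastocyst-only members were thus 23.4% of the set and 2-cell-only members 14.0%, beside 12.7% and 19.0% of the 13549 genes that met the same threshold. The values that chose the members also set these shares, which are given as a description. Mitochondrial carriers were mostly shared, with 32 of 36 at both stages (the class includes Slc25a17, known as a peroxisomal carrier), and so were the Golgi and ER carriers, with 20 of 24. Amino acid and peptide carriers divided more evenly, with 11 at both stages, 8 at the 2-cell stage alone and 12 in blastocysts alone.

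**Figure D1:**
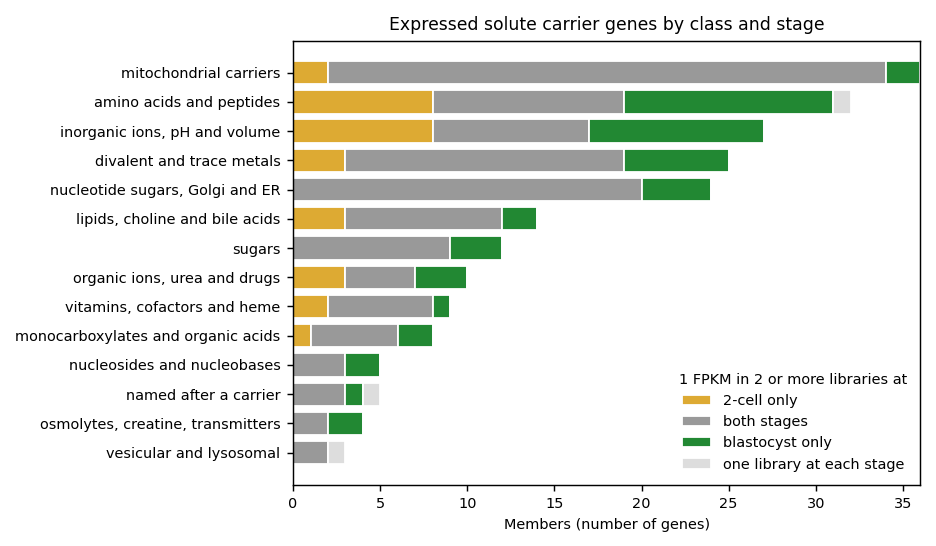
Members of each substrate class, as numbers of genes, split by the stages at which they reached 1 FPKM in 2 or more libraries. Mitochondrial carriers form the longest bar with 36 genes, 32 of them at both stages, and no sugar, nucleoside or Golgi carrier was limited to the 2-cell stage.

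At the 2-cell stage the members' FPKM summed to 1869 and 1835 (wild-type) and to 1519 and 1670 (Tet3-null). In blastocysts the sums were 6558 and 6442 (wild-type) and 5917 and 5824 (Tet3-null), all above every 2-cell library. Slc25a4 and Slc25a5 alone made up 58.1% to 62.2% of the blastocyst sums and 12.4% to 25.6% of the 2-cell sums. Without these carriers the sums were 1243 to 1583 FPKM at the 2-cell stage and 2334 to 2610 FPKM in blastocysts. Over all genes the summed FPKM was also higher in blastocysts, at 924556 to 956335 against 600495 to 634816. The sums of members were not corrected for this. All members together made up 0.240% to 0.311% of the total in 2-cell and 0.609% to 0.709% in blastocyst libraries. That share without Slc25a4 and Slc25a5 is not given.

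Between stages, most members that were expressed at both changed, as did most genes expressed at both. At an unadjusted p under 0.05 in limma, 74.05% of these members passed in each genotype. Beside this, 71.9% of all such genes passed in wild-type and 72.9% in Tet3-null embryos. A member was called when its adjusted p in limma, over all 13549 genes, was under 0.05. In wild-type embryos 57 of the 131 were higher in blastocysts (43.5%) and 37 lower (28.2%), beside 37.0% and 32.7% of the 9171 genes expressed at both stages. In Tet3-null embryos 61 were higher (46.6%) and 34 lower (26.0%), beside 41.5% and 29.4%. The median log2 change of the members was 0.33 in wild-type and 0.48 in Tet3-null embryos, beside 0.09 and 0.27 for all such genes. Of the 131, 53 were called higher in both genotypes (40.5%) and 31 lower in both (23.7%), beside 34.5% and 27.0% of all genes expressed at both stages. A further 21 were called in one genotype and 26 in neither, and none was called in opposite directions. These genotype comparisons share no library, and the log2 changes of the 131 had the same sign in 125 (Pearson's r across genes 0.969). Genes are not independent replicates. No such values are given for all genes, so whether this agreement is particular to the carriers was not tested.

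**Figure D2:**
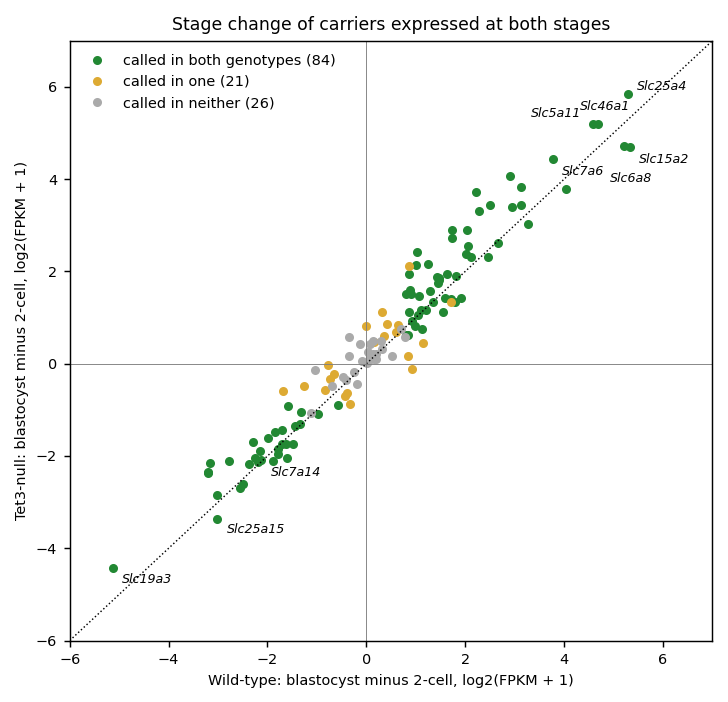
Log2 change from 2-cell to blastocyst of the 131 members expressed at both stages, in wild-type (horizontal axis) and Tet3-null embryos (vertical axis), with the dotted line marking equal change. Each point is a gene coloured by its calls, and Slc25a4 and Slc19a3 mark the upper and lower ends of the diagonal.

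By log2 change averaged over both genotypes, mitochondrial carriers held the largest rise of the members expressed at both stages, and also carriers that fell steeply. By the ratio of mean FPKM in wild-type embryos, Slc6a8 and Slc15a2 rose more than Slc25a4. Slc25a4 was at 45.1 and 36.5 FPKM in wild-type and 22.7 and 22.5 FPKM in Tet3-null 2-cell libraries, and in blastocysts it reached 1596 and 1670 FPKM (wild-type) or 1335 and 1384 FPKM (Tet3-null). The stages were far apart in each genotype, 40.03-fold in wild-type (log2 change 5.30, SE 0.14, adjusted p = 3.61e-07) and 60.1-fold in Tet3-null embryos. Slc25a5, its X-linked paralog, was at 272, 216, 165 and 405 FPKM in the 2-cell libraries and at 2352, 2336, 2104 and 2106 FPKM in blastocysts, in the same order. Its 2-cell level was 9.59-fold lower than its blastocyst level in wild-type embryos, and the highest 2-cell library was Tet3-null replicate 2, the one with few Y-linked transcripts, whose part in this value was not tested. Slc25a31, the adenine nucleotide carrier known from germ cells, took the opposite course, from 19.5, 18.7, 15.1 and 15.3 FPKM to 2.87, 3.99, 2.05 and 3.51 FPKM. It fell 5.57-fold in wild-type (log2 change -2.19, SE 0.23, adjusted p = 0.000118) and 5.48-fold in Tet3-null embryos, and no blastocyst library reached any 2-cell library. How reads shared by close copies were assigned is not given in the sources used here, so levels of such paralogs, and of genes with processed pseudogenes, are uncertain.

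Among the 32 mitochondrial carriers expressed at both stages, 10 were called higher and 7 lower in both genotypes. The shares of the 9171 genes expressed at both stages were 34.5% and 27.0%. Slc25a39, which is needed for mitochondrial glutathione import, rose from 7.77 and 9.37 FPKM to 73.5 and 71.7 FPKM in wild-type embryos. The phosphate carrier Slc25a3 went from between 19.7 and 41.7 FPKM over the 4 2-cell libraries to between 91.9 and 123 FPKM in blastocysts. The ornithine carrier Slc25a15 fell 10.7-fold in wild-type and 14.5-fold in Tet3-null embryos, from between 23.9 and 38.3 FPKM to between 1.69 and 3.37 FPKM. Slc25a33, a pyrimidine nucleotide carrier, fell 7.47-fold in wild-type embryos, from 25.05 and 16.5 FPKM to 2.93 and 2.64 FPKM. Neither of these overlapped between stages. Without Slc25a4 and Slc25a5 the class summed to between 265 and 394 FPKM at the 2-cell stage and to between 459 and 513 FPKM in blastocysts. Slc25a17 rose from between 24.6 and 31.7 FPKM to between 73.8 and 107 FPKM, and without it as well the sums were 239 to 364 FPKM and 359.9 to 439 FPKM. These class sums were not corrected for the higher total FPKM of the blastocyst libraries.

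Of the 9 sugar carriers expressed at both stages, 5 rose and 2 fell in both genotypes, beside 34.5% and 27.0% of the 9171 genes. Slc2a1, the basal glucose transporter, was at 7.34, 5.95, 4.30 and 7.74 FPKM in the 2-cell libraries and at 14.5, 11.96, 21.1 and 15.8 FPKM in blastocysts, wild-type first. It rose 1.99-fold in wild-type (log2 change 0.90, SE 0.28, adjusted p = 0.0217) and 3.07-fold in Tet3-null embryos (adjusted p = 0.00200), and the stages did not overlap. Its wild-type call was lost without wild-type 2-cell replicate 2 (adjusted p = 0.108) and without wild-type blastocyst replicate 1 or 2 (0.116 and 0.0514). The high-affinity glucose transporter Slc2a3 rose 10.04-fold in wild-type embryos, from 6.58 and 5.08 FPKM to 61.7 and 55.3 FPKM, and stood above Slc2a1 in every blastocyst library. Slc5a11, a sodium-coupled myo-inositol carrier, had the highest level of the class in blastocysts, at 112, 123, 131 and 127 FPKM against 4.78, 3.24, 3.63 and 1.74 FPKM. The other myo-inositol carrier, Slc5a3, was 1.78-fold lower in wild-type (adjusted p = 0.0284) and fell 2.29-fold in Tet3-null embryos. Its wild-type call held in 7 of 14 alternatives, was lost without any one of the 4 wild-type libraries, and had an adjusted p of at most 0.133. Slc45a3 fell 14.8-fold in wild-type embryos, from 18.5 and 13.6 FPKM to 0.994 and 1.18 FPKM. Slc5a1, the sodium-coupled glucose carrier of intestine and kidney, did not reach the threshold.

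**Figure D3:**
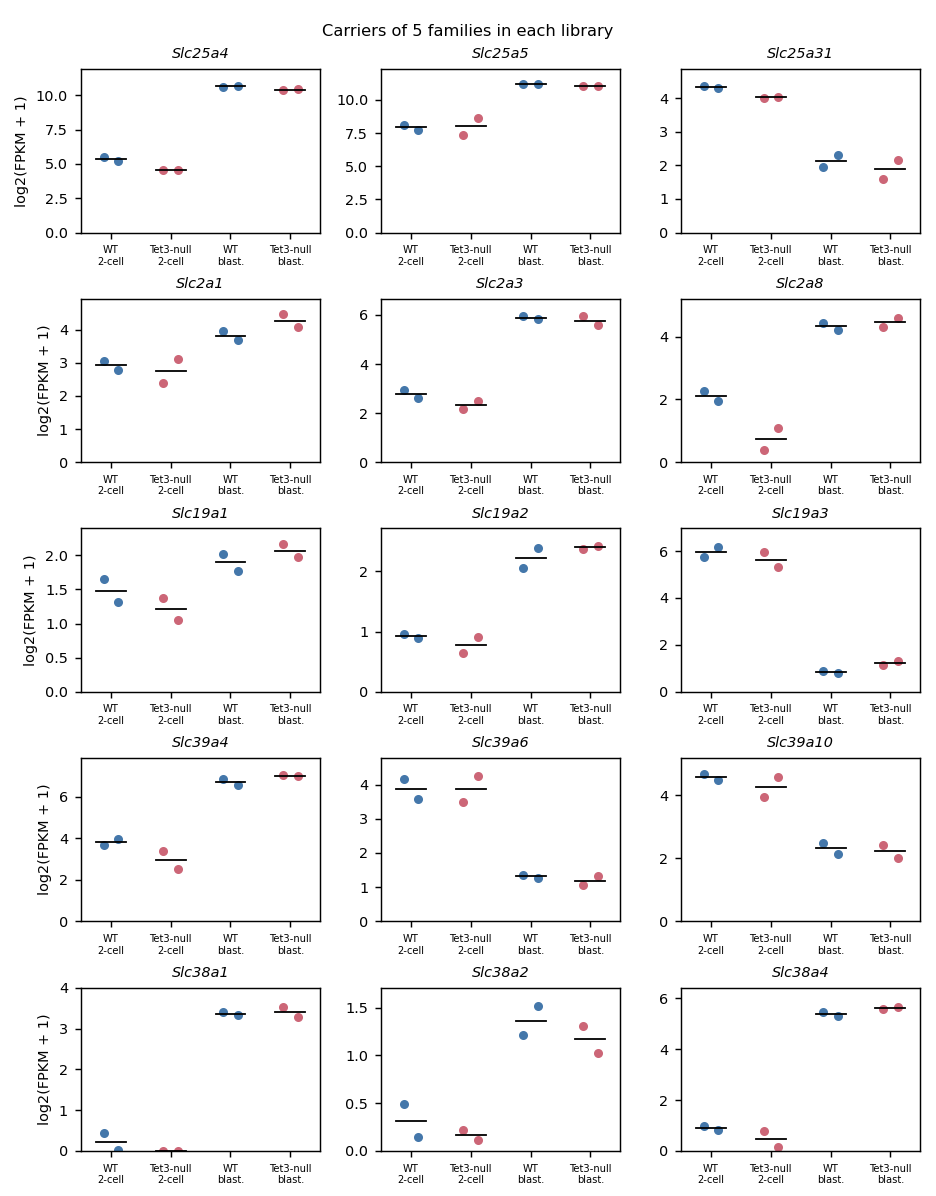
Levels on the log2(FPKM + 1) scale of 15 carriers of 5 families, in each of the 8 libraries (points, blue for wild-type and red for Tet3-null) with the mean of each group (bar). Within a family, members rose and fell, as with Slc25a4 and Slc25a31, Slc19a2 and Slc19a3, or Slc39a4 and Slc39a6.

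Of the 6 vitamin carriers expressed at both stages, 2 rose and 2 fell in both genotypes, beside 34.5% and 27.0% of the 9171 genes. Slc19a3, a thiamine transporter, was the member with the steepest fall among those expressed at both stages, from 53.2 and 71.3 FPKM in wild-type and 61.1 and 38.9 FPKM in Tet3-null 2-cell libraries to 0.867, 0.723, 1.18 and 1.45 FPKM in blastocysts. The fall was 78.2-fold in wild-type (log2 change -5.12, SE 0.25, adjusted p = 3.83e-06) and 38.1-fold in Tet3-null embryos, with no overlap. The other thiamine transporter, Slc19a2, passed the threshold in blastocysts alone, at 3.14 to 4.36 FPKM against 0.566 to 0.950 FPKM. Slc46a1, the proton-coupled folate transporter, rose 34.7-fold in wild-type embryos, from 3.31 and 1.06 FPKM to 75.2 and 76.5 FPKM. The reduced folate carrier Slc19a1 was called in Tet3-null embryos (2.42-fold higher) and not in wild-type (1.51-fold, adjusted p = 0.120), and the difference was not called by the interaction test. The wild-type change was called under quantile normalization (adjusted p = 0.0344), and the Tet3-null call was lost without Tet3-null blastocyst replicate 1 (adjusted p = 0.0593). Slc5a6, which carries biotin and pantothenate, rose 4.15-fold in wild-type embryos, from 19.5 and 25.03 FPKM to 90.8 and 94.1 FPKM. It overlaps Atraid on the opposite strand, and the library kit does not mark strand, so reads of such a pair cannot be told apart. Slc23a1, a sodium-coupled ascorbate carrier, fell 4.03-fold in wild-type embryos, from 16.6 and 18.5 FPKM to 4.41 and 4.30 FPKM.

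Among the amino acid and peptide carriers the leading gene changed. Slc7a14, a relative of the cationic amino acid transporters, led the class at the 2-cell stage at 88.4, 86.0, 98.7 and 95.7 FPKM, and fell to 18.3, 20.2, 22.7 and 21.9 FPKM in blastocysts (4.52-fold in wild-type, adjusted p = 9.32e-06). Slc15a2, the high-affinity di- and tripeptide transporter, was at most at 1.26 FPKM at the 2-cell stage and led in wild-type blastocysts at 97.8 and 79.0 FPKM. Its Tet3-null blastocyst values were 38.6 and 37.7 FPKM, below those of Slc38a4. The heavy chain Slc3a2, the partner subunit of several light chains, was at 29.8 to 42.4 FPKM in the 2-cell and 34.3 to 39.8 FPKM in the blastocyst libraries, which overlap (log2 change 0.05 in wild-type, adjusted p = 0.844). Its light chain Slc7a5 was at 2.54 to 5.49 FPKM over all libraries, with no call, and another light chain, Slc7a6, was at 1.37 and 1.501 FPKM in wild-type 2-cell and 33.8 and 31.2 FPKM in wild-type blastocyst libraries. The glutamine carrier Slc1a5 fell 2.36-fold in wild-type and 2.70-fold in Tet3-null embryos.

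Several carriers of neutral amino acids passed the threshold at one stage alone and are given by their values. Slc6a9, the glycine transporter by which cleavage-stage embryos regulate their volume, was at 7.04 and 6.87 FPKM in wild-type and 3.83 and 5.26 FPKM in Tet3-null 2-cell libraries and at most at 0.253 FPKM in blastocysts. Slc6a15 was at 5.503 to 8.48 FPKM in the 2-cell libraries and at most at 0.214 FPKM in blastocysts. On the blastocyst side, Slc38a4, an imprinted gene of the sodium-coupled system A, was at 43.4, 38.3, 46.9 and 50.03 FPKM against 0.120 to 0.956 FPKM at the 2-cell stage. The related Slc38a1 was at 8.74 to 10.6 FPKM in blastocysts, and Slc6a14, a broad carrier of neutral and cationic amino acids, at 6.73 to 8.52 FPKM. Each of these genes separated the stages in all 8 libraries. Choosing genes that passed at one stage alone favours such a separation, so it is a description.

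Zinc carriers divided within their family. Slc39a4, an importer at the plasma membrane, was at 11.9, 14.8, 9.66 and 4.69 FPKM in the 2-cell libraries and at 117, 94.4, 133 and 126 FPKM in blastocysts, a rise of 7.96-fold in wild-type and 18.0-fold in Tet3-null embryos. Slc39a7, which releases zinc from the endoplasmic reticulum, rose 28.5-fold in wild-type embryos, from 0.619 and 1.78 FPKM to 37.8 and 30.8 FPKM. Slc39a6 and Slc39a10, importers known from zinc uptake by the maturing oocyte, fell. Slc39a6 went from 16.8, 11.04, 10.2 and 18.2 FPKM to 1.55, 1.43, 1.09 and 1.49 FPKM, and Slc39a10 from between 14.4 and 24.4 FPKM to between 3.05 and 4.61 FPKM. The zinc exporter Slc30a1 fell 4.73-fold in wild-type embryos (log2 change -1.78, SE 0.16, adjusted p = 5.40e-05). Of the 16 metal carriers expressed at both stages, 6 rose and 4 fell in both genotypes, beside 34.5% and 27.0% of the 9171 genes. The iron exporter Slc40a1 passed the threshold at the 2-cell stage alone, at 4.10, 3.84, 1.71 and 2.64 FPKM against at most 0.649 FPKM.

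Carriers of inorganic ions also changed by gene. The sodium-phosphate carrier Slc34a2 led the class at the 2-cell stage, at 74.9, 86.7, 73.3 and 61.2 FPKM, and fell to between 30.9 and 33.0 FPKM in blastocysts (2.55-fold in wild-type, adjusted p = 0.000189). Another phosphate carrier, Slc20a1, rose 4.63-fold in wild-type embryos, from 11.5 and 9.93 FPKM to 51.4 and 47.9 FPKM, and overlaps 2 genes on the opposite strand. The sodium-potassium-chloride cotransporter Slc12a2 fell 5.86-fold in wild-type embryos, from 21.04 and 25.8 FPKM to 3.58 and 4.41 FPKM. Slc4a11, of the bicarbonate transporter family, rose 11.9-fold in wild-type embryos, to 24.0 and 31.5 FPKM. Slc26a6, an anion exchanger, was at 10.5 and 10.7 FPKM in wild-type and 6.90 and 3.84 FPKM in Tet3-null 2-cell libraries and at most at 0.435 FPKM in blastocysts. Slc24a5, of the sodium-calcium exchangers, was at 21.98 to 30.5 FPKM in blastocysts against 0.635 to 1.02 FPKM, and overlaps Myef2 on the opposite strand. In all, 48 members overlap an exon of another gene on the opposite strand in GENCODE M21, among them Slc2a1 and Slc6a9.

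The osmolyte and creatine class, with 4 members, summed to between 68.4 and 99.5 FPKM in blastocysts against 1.60 to 4.28 FPKM at the 2-cell stage. Most of the blastocyst sum was Slc6a8 and Slc6a13. The glycine carrier Slc6a9 and the myo-inositol carriers Slc5a3 and Slc5a11 were filed in other classes, so the sum does not describe all osmolyte carriers. Of these, Slc6a9 and Slc5a3 were lower in blastocysts and Slc5a11 higher. Both members of the class that were expressed at both stages rose in both genotypes, beside 34.5% of the 9171 genes. The creatine transporter Slc6a8 was at 1.06, 0.331, 1.04 and 0.947 FPKM in the 2-cell libraries and at 62.2, 59.2, 61.7 and 42.4 FPKM in blastocysts (87.1-fold in wild-type, adjusted p = 4.14e-06). The 2-cell values of Slc6a8 lie near or below 1 FPKM, so the size of its fold change is uncertain. The taurine transporter Slc6a6 rose 4.77-fold in wild-type embryos, from 1.81 and 1.27 FPKM to 8.37 and 6.34 FPKM. Slc6a13, a transporter of the GABA family, was at 18.2 to 28.2 FPKM in blastocysts and below 1 FPKM in all 2-cell libraries.

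Of the 20 nucleotide sugar, Golgi and ER carriers expressed at both stages, 9 rose and 3 fell in both genotypes. For the 9171 genes these shares were 34.5% and 27.0%. Slc35b1, which carries ATP into the ER, led the class in wild-type 2-cell and in all blastocyst libraries and rose 4.21-fold in wild-type embryos, from 38.6 and 33.3 FPKM to 161 and 142 FPKM. Slc35e3, a carrier of unassigned substrate, fell from between 20.7 and 24.6 FPKM to between 3.97 and 5.39 FPKM. Slc29a1, the equilibrative nucleoside transporter, passed in blastocysts alone, at 22.3, 18.1, 16.1 and 15.8 FPKM against 0.0337 to 0.272 FPKM. The nucleobase carrier Slc43a3 rose 2.89-fold in wild-type embryos, from 14.4 and 12.6 FPKM to 37.8 and 40.3 FPKM. This call was lost without any one of the 4 wild-type libraries (adjusted p between 0.0515 and 0.0730).

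Of the 5 monocarboxylate and organic acid carriers expressed at both stages, 2 rose and 2 fell in both genotypes. Of the 9 lipid and choline carriers expressed at both stages, 4 rose and 2 fell in both genotypes. For the 9171 genes these shares were 34.5% and 27.0%. Slc16a1, the chief lactate and pyruvate transporter, was at 9.29 to 10.7 FPKM in the 2-cell libraries and at 5.81 to 8.49 FPKM in blastocysts, lower 1.67-fold in wild-type (adjusted p = 0.00750) and not called in Tet3-null embryos (adjusted p = 0.235). The wild-type call was lost without wild-type blastocyst replicate 2 (adjusted p = 0.0513). The difference between these changes was not called by the interaction test. Slc16a6, a relative in the same family, fell 11.5-fold in wild-type embryos, from 36.3 and 44.0 FPKM to 4.17 and 2.81 FPKM, and overlaps Amz2 and Arsg on the opposite strand. Slc16a3 and Slc16a7, the other established lactate and pyruvate carriers, were below the threshold. Among the rises, the dicarboxylate carrier Slc13a2 went from 1.65 and 3.32 FPKM to 11.4 and 9.24 FPKM in wild-type embryos (4.14-fold, adjusted p = 0.00244). The citrate carrier Slc13a5 passed in blastocysts alone, at 1.78 to 2.96 FPKM against at most 0.102 FPKM. Slc44a4, of the choline transporter-like family, rose 5.59-fold in wild-type embryos, from 5.09 and 2.03 FPKM to 21.6 and 18.2 FPKM. Slc27a5, a bile acyl-CoA synthetase, was at 6.88 to 9.07 FPKM in the 2-cell libraries and at most at 0.134 FPKM in blastocysts. The organic anion carrier Slc22a20 fell 13.8-fold and the carnitine transporter Slc22a5 rose 3.98-fold in wild-type embryos. Of the genes named after carriers, Slc7a6os fell 3.20-fold and Slc9a3r1, which encodes a scaffold of membrane transporters, rose 3.02-fold in wild-type embryos.

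Carriers filed under other names and known partner subunits were listed separately, as 41 symbols, of which 36 were in the files and 32 passed the filter. In wild-type embryos 13 of the 32 were higher and 14 lower in blastocysts, beside 35.8% and 38.4% of all 13549 genes. In Tet3-null embryos 14 were higher and 12 lower, beside 38.9% and 35.1%. Basigin (Bsg), the chaperone of Slc16a1, was at 5.66 and 6.81 FPKM in wild-type 2-cell and 122 and 109 FPKM in wild-type blastocyst libraries, opposite in direction to Slc16a1. Pdzk1, a scaffold of carriers, rose to between 21.2 and 34.98 FPKM from at most 2.05 FPKM. The transferrin receptor Tfrc fell from between 49.5 and 86.6 FPKM to between 3.32 and 6.78 FPKM. None of the 32 was called between genotypes at either stage or in the interaction.

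Between genotypes at the 2-cell stage, no member was called higher (background 0.613% of the 13549 genes) and 4 were called lower in Tet3-null embryos, 1.87% of the members beside 2.1% of all genes. At an unadjusted p under 0.05, 43 members (20.1%) passed, beside 23.7% of all genes. The median log2 change was -0.25 over the members and -0.17 over all genes. Under quantile normalization these medians moved to -0.03 and 0.00, and under median-of-ratios scaling to -0.09 and 0.01. The class medians of the amino acid and metal carriers changed sign under quantile normalization (0.04 and 0.01) from -0.18 and -0.20. Those of the organic ion and monocarboxylate carriers moved from -0.11 and -0.16 to 0.10 and 0.00.

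**Figure D4:**
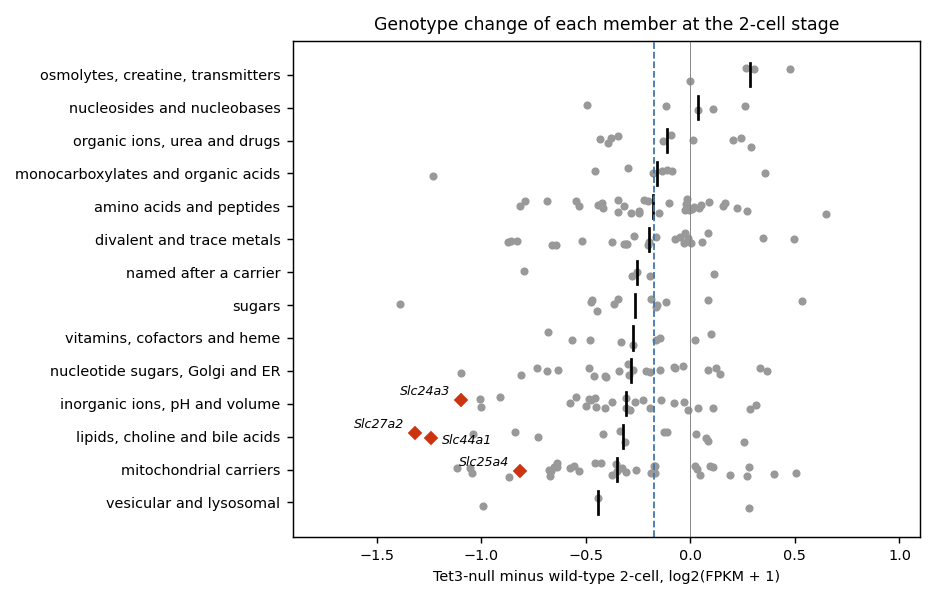
Log2 change of Tet3-null against wild-type 2-cell embryos for each of the 214 members, by substrate class, with the class median (bar) and the median of all genes (dashed line, -0.17). Red diamonds are the 4 called members, all of them lower.

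Slc44a1 was at 3.24 and 2.58 FPKM in wild-type and 0.468 and 0.847 FPKM in Tet3-null 2-cell libraries. The groups did not overlap, and the level was 4.43-fold lower (log2 change -1.24, SE 0.19, adjusted p = 0.0351). Its blastocyst level was 6.96 and 6.57 FPKM in wild-type and 6.24 and 6.31 FPKM in Tet3-null libraries. Slc27a2 was at 14.5 and 13.5 FPKM in wild-type and 4.91 and 5.13 FPKM in Tet3-null 2-cell libraries, 2.79-fold lower with no overlap (log2 change -1.32, SE 0.22, adjusted p = 0.0380), and below 1 FPKM in all blastocyst libraries. Both genes overlap an unnamed or predicted gene on the opposite strand, 1700060J05Rik and Gm26697. Slc25a4, with the 2-cell values given above, was 1.80-fold lower in Tet3-null embryos with no overlap (log2 change -0.82, SE 0.14, adjusted p = 0.0380). For Slc44a1, Slc27a2 and Slc25a4, being called in this same comparison favours a lack of overlap, which is a description and no further support. Slc24a3, a potassium-dependent sodium-calcium exchanger, was at 1.70 and 2.11 FPKM in wild-type and 0.577 and 0.165 FPKM in Tet3-null libraries. It met the threshold only through its wild-type 2-cell libraries, so its call (adjusted p = 0.0429) is a description.

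The 5 members next by p were all lower and none was called. The glucose transporter Slc2a8 was at 3.85 and 2.90 FPKM in wild-type and 0.293 and 1.13 FPKM in Tet3-null libraries (adjusted p = 0.0512). Slc35b1 was at 38.6 and 33.3 FPKM against 17.9 and 22.4 FPKM (adjusted p = 0.0517), and Slc35c2, of the nucleotide sugar transporter family, at 3.94 and 6.65 FPKM against 1.87 and 1.88 FPKM (adjusted p = 0.0536). The aromatic amino acid transporter Slc16a10 and Slc25a39 had adjusted p of 0.0639 and 0.0704. In each of the 5 the libraries of the genotypes did not overlap. Choosing them by p in this same comparison favours that, so it is a description. The count of 4 was 0 under quantile normalization or median-of-ratios scaling, and 37 (4 higher, 33 lower) without Tet3-null 2-cell replicate 1, when replicate 2 stands alone for its group. Those 37 were 17.3% of the members, beside 25.5% of all genes called in the same fit. Without Tet3-null 2-cell replicate 2 it was 6 (2.80%, beside 2.32% of all genes), and without any one of the other libraries 0.

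**Figure D5:**
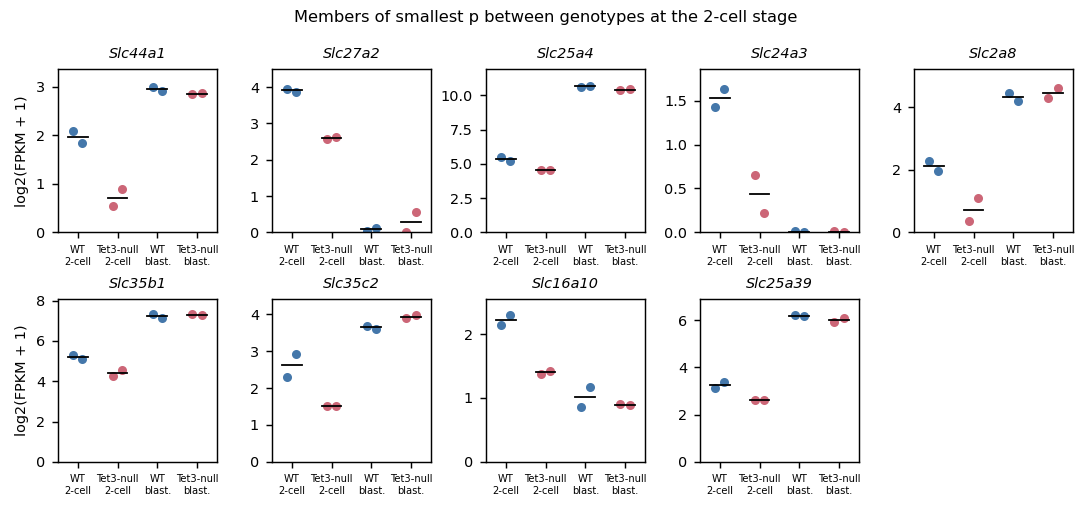
Levels on the log2(FPKM + 1) scale of the 9 members with the smallest p between genotypes at the 2-cell stage, in each of the 8 libraries (points, blue for wild-type and red for Tet3-null) with group means (bars). In all 9 both Tet3-null 2-cell libraries lie below both wild-type ones, which choosing them by p in this same comparison favours.

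X-linked members, 8 in number, had a median log2 change of 0.06 at the 2-cell stage, beside -0.27 for the 205 others with a chromosome in the RefSeq table. Slc25a5, Slc6a8 and Slc25a43 are among them. Tet3-null 2-cell replicate 2 was the library with the sum of Y-linked transcripts near 0, and its part in this difference was not tested. In blastocysts the median log2 change between genotypes was -0.20 over the X-linked members and -0.003 over the others. The Y-linked sum was higher in Tet3-null blastocysts, at 98.02 and 90.75 FPKM against 52.89 and 48.32 FPKM in wild-type. The part of this imbalance in the blastocyst genotype comparison was not tested.

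In blastocysts, none of the 214 members was called between genotypes by limma, beside 0.0664% of all genes. At an unadjusted p under 0.05, 12 members (5.61%) passed, beside 5.46% of all genes. The median log2 change was -0.01 over the members and -0.02 over all genes. Slc15a4, a lysosomal carrier of peptides and histidine, had the smallest p, at 4.21 and 4.11 FPKM in wild-type and 2.12 and 2.22 FPKM in Tet3-null blastocysts (1.92-fold lower, adjusted p = 0.628). Slc15a2, at the values given above, was 2.32-fold lower (log2 change -1.18, SE 0.35, adjusted p = 0.659). Its Tet3-null libraries lay below both wild-type libraries, which choosing it by p in this same comparison favours. Slc9a3r1 was at 83.7 and 69.9 FPKM against 44.4 and 48.3 FPKM (adjusted p = 0.797). The remaining members of the 6 with the smallest p were Slc25a43, Slc27a3 and Slc4a2, with adjusted p of 0.860, 0.860 and 0.884, of which Slc27a3 was higher in Tet3-null embryos. The 13 blastocyst markers summed to 5053 and 4724 FPKM in wild-type and 3597 and 3332 FPKM in Tet3-null blastocysts. Most of this sum is the keratins Krt8 (1078 and 958 against 571 and 527 FPKM) and Krt18 (3138 and 2966 against 2170 and 1985 FPKM). Of the 13, 5 were lower in both Tet3-null libraries than in either wild-type library, 3 (Nanog, Gata6 and Dab2) were higher, and 5 overlapped. With 2 libraries a group, such separation can arise without any difference. No share over all genes is given beside it, so these counts are a description. The part of the markers in the values of the members was not tested.

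The genotype effect did not differ between stages by a call in any of the 214 members, beside 0.14% of all genes. At an unadjusted p under 0.05, 20 members (9.35%) passed, beside 14.4% of all genes. Without Tet3-null 2-cell replicate 1 the count of calls was 15, or 7.01% of the members beside 12.6% of all genes.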

How the data were processed

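Embryo RNA was amplified with SMARTer chemistry and sequenced from unstranded libraries, per the labels' protocols. The authors deposited 1 value per gene and library with no header naming its unit, taken here as FPKM from the processing tools and the values. The submitters' processing notes name Cufflinks 2.2.0, TopHat2 2.0.10 and Bowtie2 2.1.0, with mm9 as the genome, and the gene models used are not given in the sources here. The members and lists were chosen with earlier results of these data known.

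All 8 libraries were fitted as 4 group means in limma 3.58.1 (R 4.3.3) on log2(FPKM + 1) over the 13549 genes with 1 FPKM in 2 or more libraries, with an intensity trend, two-sided. Adjusted p-values are Benjamini-Hochberg over all those genes. The fit was tested on simulated data. Fold changes are ratios of mean FPKM over 2 libraries, and the log2 changes understate those of low genes. Substrate classes were written by hand from textbook knowledge.

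Named members were those known from preimplantation embryos, the members of smallest p per genotype comparison (10 at the 2-cell stage and 6 in blastocysts), and per class the largest rises and falls called in both genotypes and the highest level at each stage. Members named beyond this rule, such as other carriers of the same family, were chosen after their values were seen. Some named members are not reported here. Symbols of 213 members matched the RefSeq table of GRCm38.p6, whose promoters are the only coordinates given. Alternatives were other pseudocounts, filters, scalings, no trend, the replicate block, the stage alone and each library left out.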

Additional observations from a re-analysis of the deposited data

How the results depend on the processing

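The stage counts over members expressed at both stages stayed within 1.5 times under every alternative run, and with each library left out they ranged from 81 to 97 in wild-type and from 80 to 98 in Tet3-null embryos. Over all 214 members the stage counts were 164 and 163, from 143 to 172 and from 144 to 166 with a library left out, and 107 and 105 with a filter at 5 FPKM. That filter tests fewer members. In the main fit 48.1% of the members were called higher in wild-type blastocysts and 28.5% lower, beside 35.8% and 38.4% of all genes. In Tet3-null embryos these shares were 50.9% and 25.2%, beside 38.9% and 35.1%. The 214 include 50 members that passed in blastocysts alone and 30 at the 2-cell stage alone, so these shares are a description. The 4 calls at the 2-cell stage were 2 with a pseudocount of 0.1, 2 with no filter, 0 under quantile normalization, 0 under median-of-ratios scaling, 0 in the 2-cell libraries alone, and between 0 and 37 with a library left out. The cause was not tested. With the replicate block the count was 0, and replicate numbers do not pair the samples: deviations of same-numbered libraries correlated at -0.08 in 2-cell and 0.02 in blastocyst libraries. The interaction count was between 0 and 15 with a library left out and 0 otherwise, and the blastocyst genotype count was 0 throughout. The adjusted p of Slc44a1 ranged from 0.0137 to 0.376, that of Slc27a2 from 0.0209 to 0.376 and that of Slc25a4 from 0.0138 to 0.376. Among the named members whose change was recomputed, direction reversed for Slc3a2 and Slc7a5 alone, neither of them called. The stage change of Slc3a2 was -0.069 in wild-type and -0.16 in Tet3-null embryos under quantile normalization and -0.054 in Tet3-null embryos under median-of-ratios scaling. With a library left out it ranged from -0.11 to 0.20 in wild-type and from -0.16 to 0.34 in Tet3-null embryos, and that of Slc7a5 in wild-type from -0.12 to 0.41. Of 140 class medians recomputed under another scaling, 132 moved by less than a typical standard error of their members. That error is of a single member and does not measure how certain a class median is. Some class medians changed sign between scalings, as given above for the 2-cell genotype comparison. Where leaving a library out left 1 in a group, that library was assumed to vary like the others. Read totals are unknown, so no counting error can be given, and values near 1 FPKM are the least certain.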
